A study of Mus musculus with 12 samples.

Results

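TRIM (tripartite motif) proteins are a large family of ubiquitin ligases, and their transcripts were examined here in mouse oocytes across the pubertal transition. Members were taken by name, as the genes of the deposited count table whose symbol is Trim followed by a digit, which gave 68 of 24562 genes. Oocytes came from outbred CD-1 mice on postnatal day (PND) 13, 16 or 40, and PND 16 mice were divided by body weight into PND 16 small and PND 16 large. No mouse carried a transgene or received hormones, and every oocyte was isolated from antral follicles of unstimulated ovaries and stripped of its surrounding cells. Each cohort was measured by RNA-Seq in n = 3 pools of 18 to 45 oocytes, and the study took oocytes from 3 mice per cohort to make the pools. The sources used here do not say whether a pool came from 1 animal or several. The study groups PND 16 large and PND 40 as meiotically competent and PND 13 and PND 16 small as meiotically non-competent.

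Most TRIM proteins begin with a RING finger, which recruits an E2 enzyme loaded with ubiquitin, followed by a B-box and a coiled coil through which the proteins form dimers. The C-terminal part differs between classes and selects the target: a PRY-SPRY domain in most members, a PHD finger and bromodomain in the chromatin-bound members, and NHL repeats in members that bind RNA. Oocytes build up and store transcripts during growth, and these stores serve meiotic maturation and the early embryo before its own genome is active. TRIM28, a chromatin corepressor, is known as a maternal product that preserves imprints in the embryo, and TRIM21, an antibody receptor of the cytosol, is the ligase used to destroy proteins in oocytes by the Trim-Away method.

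The start-site sequences of 4 members that the results turn on are shown first: Trim61, Trim60 and Trim75, the TRIM genes with the highest transcript level per length, and Trim6, which fell to a low level at PND 40. Each is the 250 bases before the RefSeq start on GRCm38.p6, written in the direction of transcription. Capitals mark TAATTA or TAATTG, the letters bound by homeodomain factors of the NOBOX type, searched on both strands.
Trim61 and Trim60 (the same window, chr8:65018689-65018938, minus strand): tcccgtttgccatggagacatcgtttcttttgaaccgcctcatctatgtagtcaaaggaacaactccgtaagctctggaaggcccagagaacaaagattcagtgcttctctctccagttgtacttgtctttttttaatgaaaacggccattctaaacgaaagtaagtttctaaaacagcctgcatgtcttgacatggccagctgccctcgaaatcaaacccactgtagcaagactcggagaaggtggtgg
Trim75 (chr8:64987645-64987894, minus strand): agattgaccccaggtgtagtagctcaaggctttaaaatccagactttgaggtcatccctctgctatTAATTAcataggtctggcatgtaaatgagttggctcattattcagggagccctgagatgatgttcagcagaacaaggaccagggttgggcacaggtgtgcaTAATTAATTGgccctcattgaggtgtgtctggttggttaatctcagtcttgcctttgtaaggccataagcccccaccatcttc
Trim6 (chr7:104218545-104218794, plus strand): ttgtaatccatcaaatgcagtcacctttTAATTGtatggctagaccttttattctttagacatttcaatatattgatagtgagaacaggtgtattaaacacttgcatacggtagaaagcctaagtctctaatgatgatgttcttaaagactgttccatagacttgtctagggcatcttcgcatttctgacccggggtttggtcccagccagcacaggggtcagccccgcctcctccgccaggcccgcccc

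The Trim75 window held TAATTA 2 times and TAATTG 1 time, with 2 of these matches overlapping. The Trim6 window held TAATTG 1 time, and the window that Trim60 and Trim61 share held neither. Of 32851 start-site windows of the same length, 4.84% held TAATTA and 7.17% held TAATTG. A match describes letters only and is not a site of binding. Trim75, Trim60 and Trim61 are neighbours on chromosome 8, all on the minus strand. In GENCODE M21 Trim75 spans chr8:64980884-64987831, Trim60 spans chr8:64999307-65018584 and Trim61 spans chr8:65012987-65018523. The GENCODE start of Trim75 thus lies inside its window, upstream of the RefSeq start used here. All marked matches of the Trim75 window lie downstream of that GENCODE start, within the annotated gene. Of their exonic bases, 2.47% in Trim60 and 5.61% in Trim61 overlap another gene on the same strand.

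Pools held 17671193 to 27418358 counts each, and TRIM genes took 0.394% to 0.466% of it. Levels are given as CPM, counts relative to the pool total after TMM scaling, an edgeR method that equalizes the bulk of genes between pools, as mean ± SD over pools. All 13 oocyte markers examined were detected, with a summed level of 18709 to 25837 CPM. All 11 granulosa and cumulus cell markers were detected, and they summed to 172.9 to 188.4 CPM in PND 16 large pools and to 144.9 to 160.6 CPM in PND 40 pools. It was 444.2, 109.3 and 510.6 CPM in the 3 PND 13 pools and 156.6, 495.8 and 202.5 CPM in the 3 PND 16 small pools, so 3 non-competent pools stood apart. A fit without these 3 pools leaves 1 PND 13 pool, so calls against PND 13 that it loses do not show a part of granulosa cells. Immune markers summed to 3.19 CPM at most, with C1qa and Tyrobp at 0, 5 of 6 erythroid markers were at 0, and muscle markers summed to 1.36 CPM at most. Theca and stroma markers summed to 6.09 to 38.3 CPM and endothelial markers to 85.2 to 107 CPM. In pooled cells, fewer cells that carry a transcript and less of it per cell cannot be told apart. CPM also gives a share of a pool's counts, not an amount per oocyte. The paper reports that oocyte diameter rose over the early age cohorts, so a fall in CPM need not be a smaller amount per oocyte.

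Of the 68 TRIM genes, 51 passed the filter on low counts and entered the test, among 13943 genes in all. At least 1 count was present in every pool for 40 members. Trim12a, Trim30b, Trim42 and Trim58 had no count in any pool. Another 6 members, Trim16, Trim34a, Trim34b, Trim43a, Trim55 and Trim69, had at most 3 counts in each pool. The remaining 7 untested members, Trim29, Trim30e-ps1, Trim43b, Trim46, Trim52, Trim63 and Trim7, exceeded 3 counts in at least 1 pool. The summed level of the family was 4110 ± 136 CPM for PND 13 and 4142 ± 136 CPM for PND 16 small, and it was 4479 ± 109 CPM for PND 16 large and 4601 ± 97.8 CPM for PND 40 pools (SD, n = 3 each).

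To compare members with one another, levels were divided by exon length, and the means ± SD below are over the 12 pools. Trim61 stood at 612 ± 85.2 CPM per kb and alone made up 43.8% of the summed level per length of the family. It was followed by Trim60 at 177 ± 10.5 CPM per kb and Trim75 at 112 ± 15.5 CPM per kb. Together these 3 neighbouring genes made up 64.5% of the sum. Next came Trim13, an ER membrane ligase, at 96.4 ± 9.39 CPM per kb, and Trim28 at 88.4 ± 8.07 CPM per kb. In Trim13, 14.2% of 50-base stretches also occur in the gene Gm9359, so its count is less certain. Trim24, a coregulator of nuclear receptors from the same chromatin-bound class as Trim28, stood at 49.4 ± 5.61 CPM per kb.

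The order Trim61, Trim60, Trim75 held in every pool, since the ranges of these neighbours did not overlap. The ranges of Trim75 and Trim13 over the 12 pools overlapped, as did those of Trim13 and Trim28. Trim28 and Trim24 did not overlap, and neither did Trim24 and Trim27 (30.8 ± 3.32 CPM per kb), while below Trim27 most neighbouring ranges overlapped. At the other end, 19 members stood under 0.1 CPM per kb. The 10 highest members made up 89.1% of the sum, and the other 58 shared what was left.

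**Figure D1:**
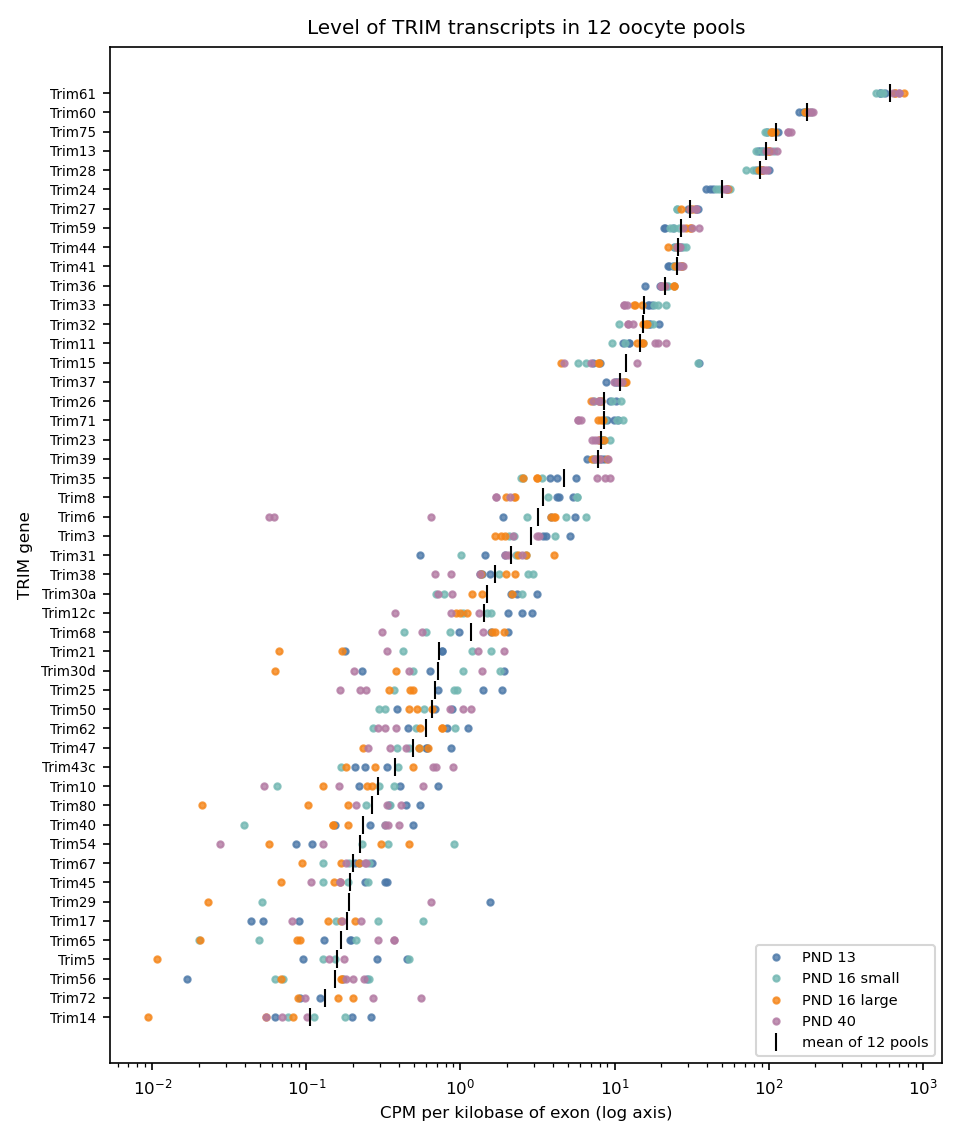
Level of each TRIM gene with a mean of at least 0.1 CPM per kilobase of exon in the 12 pools (log axis, 1 point per pool, coloured by cohort, black mark at the mean of the 12 pools; pools at 0 cannot be drawn on a log axis). Trim61, Trim60 and Trim75 lie at the top with narrow ranges, and the spread between pools widens towards the low members.

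The 3 highest members moved little in size. Trim61 was at 1045, 1134 and 1049 CPM in the PND 13 pools, at 1068.5, 981 and 1099 CPM in PND 16 small, at 1500.4, 1300.3 and 1314 CPM in PND 16 large and at 1391, 1265 and 1386 CPM in PND 40. Every competent pool was above every non-competent pool. The difference was 0.35 on the log2 scale (SE 0.06, adjusted p = 0.00054, edgeR quasi-likelihood test), which is under the 1.5-fold criterion that the study used. Trim60, which shares its RefSeq start window but not its GENCODE start with Trim61, was at 458 ± 26.5 CPM in non-competent and 487 ± 23.3 CPM in competent pools. The difference was 0.09 (SE 0.06, adjusted p = 0.251, edgeR).

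Trim75 was at 366, 400.5 and 341 CPM at PND 13, 362, 329 and 342 CPM in PND 16 small, 365, 382 and 363 CPM in PND 16 large and 465.9, 483.7 and 468.8 CPM at PND 40. The PND 40 pools were above all others. The log2 difference from PND 16 large was 0.35 (SE 0.07, adjusted p = 0.00889, edgeR), again under 1.5-fold. Both groups of competent oocytes thus had more Trim61 than the PND 13 and PND 16 small pools, whereas the PND 40 pools alone stood apart for Trim75.

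A gene was called where the adjusted p was at most 0.05 and the change at least 1.5-fold, and 16 of the 51 tested TRIM genes were called in at least 1 of 7 comparisons. The share of all tested genes called in at least 1 comparison was not computed, so the 16 cannot be set against it. Single comparisons called up to 18.9% of all tested genes. The comparisons share pools, so they do not repeat one another independently. In PND 16 large vs. PND 13, 0 TRIM genes were called higher and 6 lower, where the shares of all tested genes were 3.52% and 9.8%. At PND 40 vs. PND 13 the counts were 2 higher and 6 lower, against 6.31% and 12.6% overall. In PND 16 large vs. PND 16 small, 1 was higher and 3 were lower, against 1.43% and 4.76% overall.

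At PND 40 vs. PND 16 small, 5 were higher and 6 lower, against 6.89% and 10.3% overall. At PND 40 vs. PND 16 large, 2 were higher and 1 lower, against 2.34% and 1.32% overall. Between competent and non-competent pools, 1 was higher and 3 were lower, against 3.78% and 11.2% overall. As shares of the 51 tested members, the called genes made up 7.84% in this last comparison and 21.6% at PND 40 vs. PND 16 small, against 15% and 17.2% of all genes. The median log2 change of the tested members lay between -0.17 and 0.07 in the 7 comparisons, and that of all genes between -0.04 and 0.004.

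In PND 16 small vs. PND 13, the 2 non-competent cohorts, edgeR called 0 TRIM genes in either direction, against 0.179% of all genes higher and 0.194% lower. There, 15 members had an unadjusted p under 0.05, DESeq2 called 1 and limma called 0. The matching shares of all tested genes are not given here, so these counts show nothing particular to the family. Between the 2 competent cohorts, PND 40 and PND 16 large, the called genes were Trim35, Trim21 and Trim6.

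**Figure D2:**
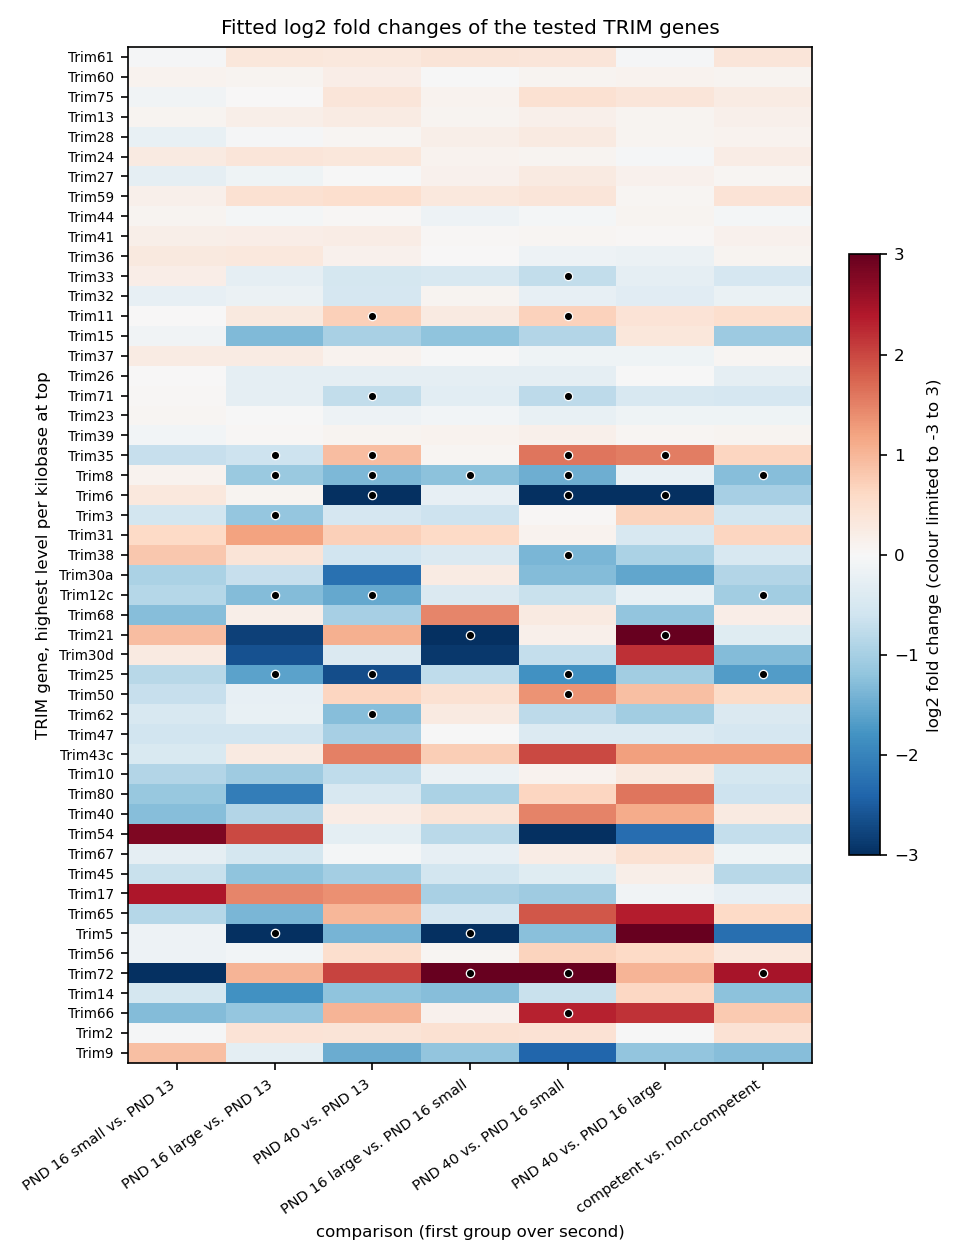
Fitted log2 fold changes of the 51 tested TRIM genes (rows, ordered by level per kilobase) in the 7 comparisons (columns, first group over second), with colour limited to -3 and 3 and a black dot where a gene was called. The abundant members in the upper rows show pale colours, and the strong colours lie among the members of low level.

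The called genes are described by class. Among members without a known C-terminal domain, Trim8, a regulator of cytokine and NF-kB signalling, fell in competent oocytes. Trim8 was at 16.3, 15.8 and 19.97 CPM at PND 13, 13.7, 21.2 and 21.2 CPM in PND 16 small, 8.34, 8.28 and 7.32 CPM in PND 16 large and 7.80, 6.29 and 6.32 CPM at PND 40. Every competent pool was below every non-competent pool. Its level was 7.39 ± 0.921 CPM in competent and 18.0 ± 3.17 CPM in non-competent pools (n = 6 each), a log2 change of -1.29 (SE 0.14, adjusted p = 3.34e-05, edgeR). Trim8 was called in 5 of 7 comparisons, all those between a competent and a non-competent group, and it passed in every fit that left out a pool. Without the 3 pools highest in granulosa markers its log2 change was -1.19.

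The PRY-SPRY class is the largest, with 26 tested members, and held the most called genes. At PND 40 vs. PND 16 small 4 of the 26 were called higher and 3 lower, against 6.89% and 10.3% of all tested genes. In PND 16 large vs. PND 13, 0 were higher and 4 lower, against 3.52% and 9.8%. At PND 40 vs. PND 13, 2 were higher and 4 lower, against 6.31% and 12.6%. In PND 16 large vs. PND 16 small, 1 was higher and 2 were lower, against 1.43% and 4.76%. At PND 40 vs. PND 16 large, 2 were higher and 1 lower, against 2.34% and 1.32%. In competent vs. non-competent pools 1 was higher and 2 were lower, against 3.78% and 11.2%, and all 3 of these calls were lost without the 3 pools highest in granulosa markers. Trim35 followed a course that differed from that of Trim8. It was at 17.5, 19.5 and 25.9 CPM at PND 13, 15.7, 11.4 and 11.8 CPM in PND 16 small, 14.4, 14.4 and 11.8 CPM in PND 16 large and 39.8, 35.8 and 42.9 CPM at PND 40. The PND 40 pools were the highest and the PND 13 pools lay between them and both PND 16 cohorts. Trim35 rose by 1.54 on the log2 scale from PND 16 large to PND 40 (SE 0.17, adjusted p = 0.000432, edgeR) and was 0.92 higher at PND 40 than at PND 13 (SE 0.17, adjusted p = 0.00125). Between competent and non-competent groups the change of 0.64 (SE 0.35, adjusted p = 0.179) was not called, as PND 16 large and PND 40 stood apart.

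Trim11, a ligase of protein quality control, was also highest at PND 40. It was at 44.4, 44.4 and 40.8 CPM at PND 13, 54.7, 42.0 and 34.4 CPM in PND 16 small, 55.0, 53.6 and 49.98 CPM in PND 16 large and 65.6, 68.5 and 77.5 CPM at PND 40. No pool of another cohort reached the PND 40 range. It was 0.71 higher at PND 40 than at PND 13 (SE 0.14, adjusted p = 0.0019, edgeR) and 0.69 higher than in PND 16 small (SE 0.14, adjusted p = 0.00249). Without the 3 pools highest in granulosa markers, with 1 PND 13 pool left, the first of these was 0.67. The second was lost without PND 16 small replicate 3, where it was 0.54 and under 1.5-fold.

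Trim6, a ligase that acts in interferon signalling and is known from embryonic stem cells, fell to a low level at PND 40. It was at 27.1, 9.22 and 19.0 CPM at PND 13, 13.3, 32.1 and 23.6 CPM in PND 16 small and 18.8, 19.96 and 19.7 CPM in PND 16 large, but at 0.300, 0.279 and 3.16 CPM at PND 40. These last pools held 7, 7 and 86 counts, while every other pool held at least 236. From PND 16 large to PND 40 the log2 change was -3.93 (SE 0.81, adjusted p = 0.0236, edgeR), and against PND 13 it was -3.85 (SE 0.81, adjusted p = 0.00631). The change from PND 16 large passed only in the fit without PND 40 replicate 3, the pool with 86 counts, and lost its call in each of the other 5 fits that left out 1 pool, at an adjusted p of up to 0.0744. Against PND 13 the change was -2.84 without the 3 pools highest in granulosa markers, with 1 PND 13 pool left.

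Trim25, the ligase that activates the viral RNA sensor RIG-I, fell at later cohorts. It was at 8.07, 4.14 and 10.8 CPM at PND 13, 2.14, 5.45 and 5.22 CPM in PND 16 small, 2.70, 2.84 and 1.99 CPM in PND 16 large and 1.29, 1.39 and 0.955 CPM at PND 40. The PND 40 pools were below all the others. The log2 change at PND 40 was -2.66 vs. PND 13 (SE 0.42, adjusted p = 0.000445, edgeR) and -1.81 vs. PND 16 small (SE 0.41, adjusted p = 0.00524). The 2 PND 13 pools that were highest in Trim25 were also the 2 with granulosa marker sums of 444.2 and 510.6 CPM. Between competent and non-competent pools its change was -1.68 (adjusted p = 0.00359), and -1.03 with an adjusted p of 0.0847 without the 3 pools highest in those markers. In that fit, with 1 PND 13 pool left, the PND 16 large change vs. PND 13 went from -1.61 to -0.72, and that of PND 40 was -1.77. The PND 16 large call vs. PND 13 was lost without PND 13 replicate 3 (adjusted p = 0.0613). The part of granulosa cells in it was not tested.

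Trim12c, from the retrovirus-restricting Trim5 group, was at 7.59, 9.37 and 10.8 CPM at PND 13, 5.59, 3.89 and 5.93 CPM in PND 16 small, 3.48, 4.14 and 3.70 CPM in PND 16 large and 1.41, 3.26 and 4.92 CPM at PND 40. The PND 13 pools were above all others. The log2 change between competent and non-competent pools was -1.05 (SE 0.29, adjusted p = 0.0141, edgeR), and the groups overlapped. Without the 3 pools highest in granulosa markers it was -0.99 and not called. Its relative Trim5 was close to absent from PND 16 large, where 1 count was the most in any pool, while PND 13 and PND 16 small held up to 35. Trim5 was lower in PND 16 large by at least 8.56-fold vs. PND 13 and by at least 7.61-fold vs. PND 16 small, taking 3 counts per pool as the floor (adjusted p = 0.0105 and 0.0239, edgeR). The call vs. PND 13 was lost without PND 16 large replicate 1 (adjusted p = 0.0528). It was also lost without the 3 pools highest in granulosa markers, with 1 PND 13 pool left. The call vs. PND 16 small was lost without PND 16 small replicate 1 and without each of the PND 16 large pools, 4 of 6 fits, at an adjusted p of up to 0.109. Of 50-base stretches, 36.3% in Trim5 and 33.0% in Trim12c also occur in another gene, mostly each other or Trim12a, so how reads were divided between them is uncertain.

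Trim21 was low and uneven. It was at 2.82, 0.664 and 2.82 CPM at PND 13, 5.88, 1.56 and 4.45 CPM in PND 16 small, 0.245, 0 and 0.637 CPM in PND 16 large and 7.12, 4.86 and 1.25 CPM at PND 40. The PND 16 large pools, with 6, 0 and 16 counts, were the lowest. Trim21 fell by 3.73 on the log2 scale from PND 16 small to PND 16 large (SE 1.01, adjusted p = 0.0356, edgeR) and was 3.88 higher at PND 40 than in PND 16 large (SE 1.01, adjusted p = 0.0441). The first call was lost in 4 of 6 fits without 1 pool and the second in 5 of 6, so neither call is firm. Both were also lost with a looser filter and with only the pools compared. Over all alternatives the first change ranged from -4.97 to -3.14 and the second from 3.29 to 5.11. Between the 2 competence groups as a whole the change was -0.36 (SE 0.89, adjusted p = 0.789).

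Of the other called PRY-SPRY members, Trim38, a regulator of innate signalling, was at 5.93, 5.45 and 3.56 CPM in PND 16 small and 1.37, 2.67 and 1.73 CPM at PND 40. This was a log2 change of -1.37 (SE 0.32, adjusted p = 0.00639, edgeR). Trim50 was higher at PND 40 than in PND 16 small (1.86 ± 0.290 vs. 0.720 ± 0.281 CPM, adjusted p = 0.0395), a call lost in 5 of 6 fits without 1 pool. Trim62 was lower at PND 40 than at PND 13 (1.66 ± 0.230 vs. 4.02 ± 1.67 CPM, adjusted p = 0.0351). That call was also lost in 5 of 6 such fits, and its log2 change of -1.27 became -0.47 without the 3 pools highest in granulosa markers.

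Trim72, known for membrane repair in muscle, had 0 counts in every PND 16 small pool. It was at 0, 0.273 and 0.205 CPM at PND 13, 0.450, 0.197 and 0.358 CPM in PND 16 large and 0.600, 1.23 and 0.220 CPM at PND 40. Against the floor of 3 counts per pool it was at least 2.16-fold higher in PND 16 large than in PND 16 small and at least 4.41-fold higher at PND 40 (adjusted p = 0.0492 and 0.00961, edgeR). The first of these was lost in each of the 6 fits without 1 pool. The call in competent vs. non-competent pools (adjusted p = 0.0450) was lost in 9 of 12 such fits and under 4 other alternatives. Of its exonic bases, 27.6% overlap Gm15533 on the opposite strand, and whether counting used the strand is not given in the sources used here.

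**Figure D3:**
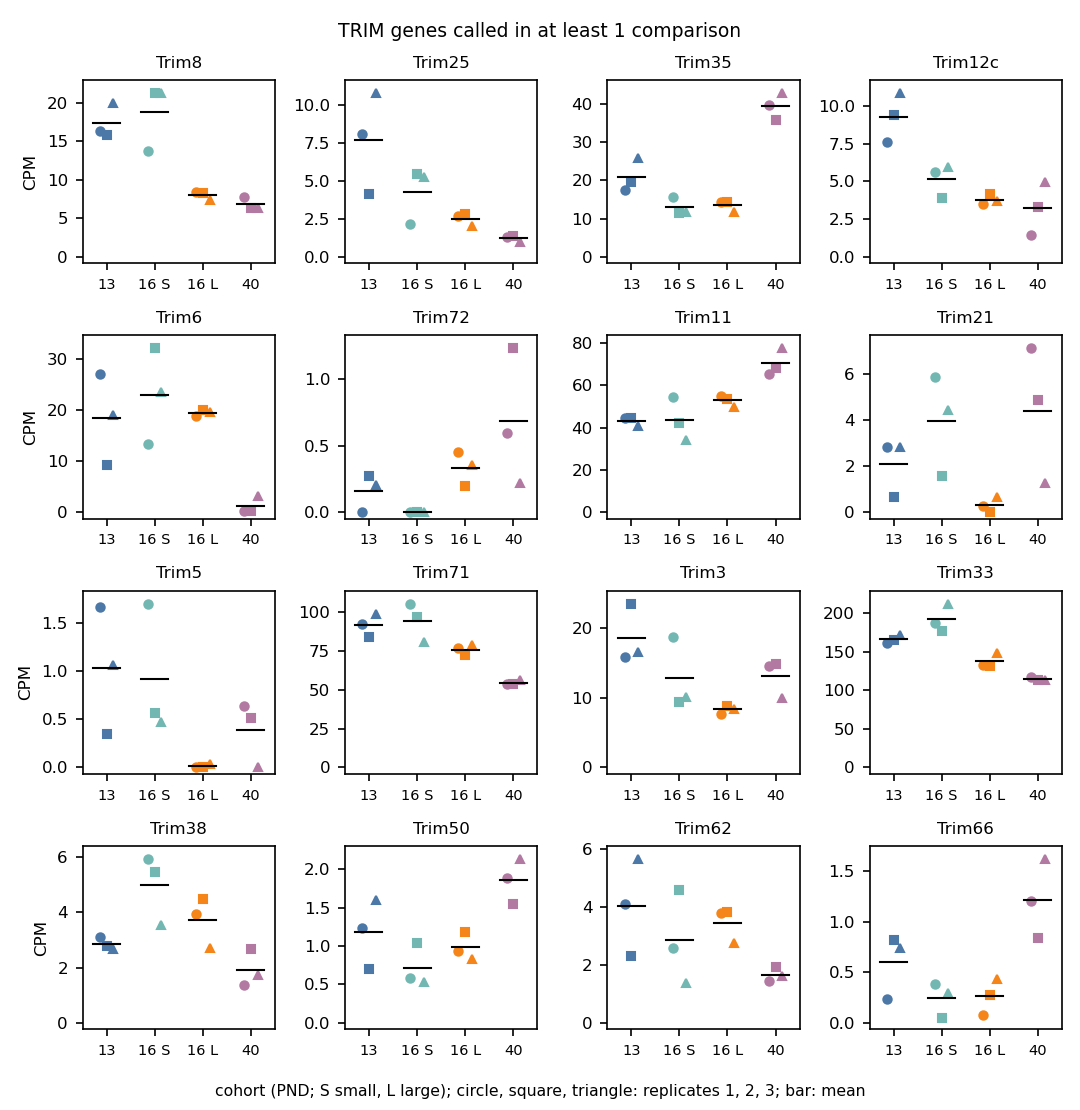
CPM in each of the 12 pools for the 16 TRIM genes called in at least 1 comparison (y axes start just below 0 and differ between panels; circle, square and triangle are replicates 1, 2 and 3, and bars are means of 3 pools). Trim8, Trim33 and Trim71 separate the competent from the non-competent pools, Trim35 and Trim11 are highest at PND 40, and Trim6 is lowest there.

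The chromatin-bound class with a PHD finger and bromodomain has 4 members, and all 4 were tested. Trim28 was at 379 ± 36.5, 327 ± 29.5, 370 ± 9.33 and 394 ± 13.7 CPM, in the cohort order PND 13, small, large and PND 40, and was called in no comparison. Trim24 was at 355 ± 17.9, 424 ± 47.8, 458 ± 5.48 and 448 ± 12.4 CPM in the same order. Its log2 change in PND 16 large vs. PND 13 was 0.37 (SE 0.08, adjusted p = 0.00418, edgeR), under 1.5-fold. Trim33, which restrains SMAD signalling, went the other way. It was at 161, 165 and 172 CPM at PND 13, 187, 176 and 212 CPM in PND 16 small, 133, 131 and 148 CPM in PND 16 large and 117, 113 and 113 CPM at PND 40.

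All competent pools were below all non-competent pools for Trim33. The log2 change of -0.51 between these groups (SE 0.08, adjusted p = 0.000571, edgeR) did not reach 1.5-fold, and that of -0.74 from PND 16 small to PND 40 (SE 0.08, adjusted p = 4.66e-05) did. Trim66, known from testis, was higher at PND 40 than in PND 16 small (1.22 ± 0.390 vs. 0.244 ± 0.177 CPM, adjusted p = 0.0433), a call lost in 5 of 6 fits without 1 pool.

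Of 18 partners of TRIM28 in gene silencing, all tested, Mphosph8, which binds methylated histone H3, rose after PND 13. It went from 110 ± 4.63 CPM at PND 13 to 173 ± 3.29 CPM in PND 16 large (log2 change 0.65, adjusted p = 0.00069, edgeR) and 179 ± 9.99 CPM at PND 40 (0.70, adjusted p = 0.000177). The deacetylase gene Hdac1 fell at PND 40 vs. PND 13 (1.06 ± 0.284 vs. 2.31 ± 0.294 CPM, adjusted p = 0.0371). The other 16 partners were called in none of the 7 comparisons. At PND 40 vs. PND 13, 1 of the 18 was called higher and 1 lower, against 6.31% and 12.6% of all tested genes. In PND 16 large vs. PND 13, 1 was called higher and 0 lower, against 3.52% and 9.8%.

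The NHL class has 4 members, all tested. Trim71, the mammalian counterpart of the RNA-binding repressor LIN-41, was lower in competent than in non-competent pools and lowest at PND 40. It was at 92.3, 84.0 and 98.8 CPM at PND 13, 105, 97.3 and 81.1 CPM in PND 16 small, 76.7, 72.3 and 79.0 CPM in PND 16 large and 54.0, 53.9 and 56.2 CPM at PND 40. The PND 40 pools lay closely together below all others, and the PND 16 large pools lay between them and the non-competent pools. The log2 change at PND 40 was -0.74 vs. PND 13 (SE 0.10, adjusted p = 0.000141, edgeR), -0.79 vs. PND 16 small (SE 0.10, adjusted p = 0.000138) and -0.47 vs. PND 16 large (SE 0.10, adjusted p = 0.0133), and the last did not reach 1.5-fold. Both calls held in every alternative and in every fit without 1 pool.

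Trim3, an NHL member known from neurons, was at 15.8, 23.4 and 16.5 CPM at PND 13 and 7.65, 8.84 and 8.396 CPM in PND 16 large, a log2 change of -1.16 (SE 0.26, adjusted p = 0.00605, edgeR) that held in every fit without 1 pool. In PND 16 small it was at 18.7, 9.38 and 10.1 CPM and at PND 40 at 14.4, 14.8 and 9.99 CPM. The PND 16 small pools overlapped those of PND 13, and the PND 40 pools lay between those of PND 13 and PND 16 large. Trim32, a ligase known from muscle, went from 57.2 ± 4.85 CPM (PND 13) to 40.6 ± 1.87 CPM (PND 40), a log2 change of -0.49 (SE 0.15, adjusted p = 0.0214) that did not reach 1.5-fold. The lowest level among the NHL members was that of Trim2, from 0 to 1.31 CPM over the 12 pools.

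Among the members with other C-terminal parts, the membrane-anchored Trim59 was at 73.9 ± 5.61, 82.0 ± 5.47, 102 ± 3.95 and 105 ± 12.7 CPM, in the cohort order PND 13, small, large and PND 40. Every competent pool was above every non-competent pool, with a log2 change of 0.41 (SE 0.07, adjusted p = 0.00098, edgeR), under 1.5-fold. Trim37, a ligase of centrosome assembly, was at 70.2 ± 5.54, 82.9 ± 1.36, 82.8 ± 3.82 and 75.8 ± 4.15 CPM in the same order and was called in no comparison. Trim44, which lacks the RING finger, had levels of 145 ± 6.60 CPM (PND 13) and 147 ± 2.80 CPM (PND 40).

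The Trim43 genes, known from the preimplantation embryo, were near the detection limit. Trim43a had at most 3 counts in each pool and Trim43b was at 0 to 0.279 CPM. Trim43c was at 0.517 ± 0.132, 0.370 ± 0.390, 0.631 ± 0.319 and 1.495 ± 0.258 CPM in the same cohort order. The PND 40 pools were above all the others, but the log2 change of 1.97 vs. PND 16 small (SE 0.81, adjusted p = 0.082, edgeR) was not called. Of the 50-base stretches of these genes, 42.1% to 47.7% occur in another gene.

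Chromosome 7 carries 16 of the 68 members, more than any other chromosome, and 13 genes there around Trim5 were taken as a group, of which 12 are in the count table and 8 were tested. Their summed level ranged over pools from 60.5 to 74.3 CPM for PND 13, from 56.3 to 58.8 CPM for PND 16 small, from 41.7 to 48.7 CPM for PND 16 large and from 28.6 to 30.4 CPM for PND 40. These ranges did not overlap between the 4 cohorts, and by cohort mean Trim6 and Trim3 contributed most to the sum outside PND 40. The median log2 change of the 8 tested genes was -0.93 between competent and non-competent pools, where that of all genes was -0.005. In the same comparison the median of the 11 granulosa and cumulus markers was -1.65, and their part in the fall was not tested. Only Trim12c was called among the 8, and it was lower, where 11.2% of all tested genes were called lower. At PND 40 vs. PND 13, Trim12c and Trim6 were called lower, 2 of 8, against 12.6% of all tested genes. Without the 3 pools highest in granulosa markers, with 1 PND 13 pool left, the change of Trim6 was -2.84. A fit with 1 PND 13 pool cannot show the part of granulosa cells in these calls. At PND 40 vs. PND 16 large the median of the 8 was 0.21, with Trim21 called higher and Trim6 lower, against 2.34% and 1.32% of all tested genes. These genes lie close together and several share sequence, so they are not independent of one another.

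A few members varied widely between pools of a cohort, and they were chosen after their values were seen. Trim15, linked to focal adhesions, was at 69.0 CPM in PND 13 replicate 2 and 68.0 CPM in PND 16 small replicate 1, at 27.3 CPM in PND 40 replicate 3, and at 8.79 to 15.8 CPM in the other 9 pools. Trim29, which lacks a RING finger, had 138 counts in PND 13 replicate 2, 61 in PND 40 replicate 3 and at most 3 in the other 10 pools. The pools with Trim29 were therefore among the 3 highest in Trim15. Neither pool was among those high in granulosa markers.

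Trim30a, an interferon-induced gene, had 0 counts in PND 40 replicate 1 and 59 to 314 in the others. Its neighbour Trim30d had 0 counts in PND 16 large replicate 1, where Trim30a had 139, and 121 counts in PND 40 replicate 1. Trim29 did not pass the filter and was not tested, and none of Trim15, Trim30a and Trim30d was called. Over the 51 tested members, the median coefficient of variation within cohorts was 27.4%, against 14.8% over all genes tested, and many of the members were of low level.

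**Figure D4:**
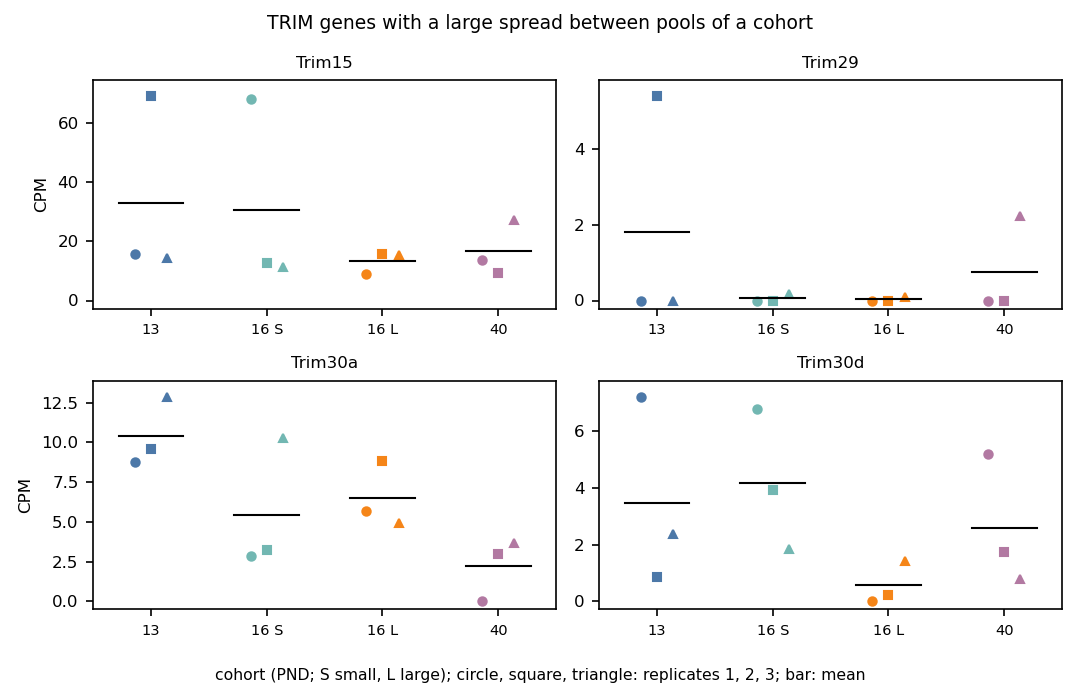
CPM in each of the 12 pools for Trim15, Trim29, Trim30a and Trim30d (symbols mark replicates 1 to 3, bars are means of 3 pools). Single pools stand far above or below the others of their cohort, such as PND 13 replicate 2 at 69.0 CPM for Trim15 and PND 40 replicate 1 at 0 for Trim30a.

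The genes that act with TRIM ligases were read from the same fit. Of 15 genes for ubiquitin, its activating enzyme and the E2 enzymes known to work with TRIM RING fingers, all tested, 1 was called higher and 3 lower at PND 40 vs. PND 13, against 6.31% and 12.6% of all tested genes. Ube2d2a rose from 80.2 ± 6.14 to 121 ± 7.41 CPM (log2 change 0.60, adjusted p = 0.000201, edgeR). Ube2d1 fell from 7.10 ± 0.943 to 4.26 ± 0.8002 CPM, Ube2e2 from 5.80 ± 0.803 to 3.56 ± 0.118 CPM and Ube2v2 from 1.66 ± 0.466 to 0.406 ± 0.190 CPM. In competent vs. non-competent pools only Ube2v2, the partner of the K63-specific enzyme Ube2n, was called (-1.62, SE 0.37, adjusted p = 0.00455). Of all tested genes, 3.78% were called higher and 11.2% lower there.

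Of 26 genes of RIG-I and interferon signalling, 19 were tested. Irf3, the transcription factor at the end of the RIG-I pathway, fell from 16.6 ± 2.03 CPM in non-competent to 10.9 ± 1.24 CPM in competent pools (log2 change -0.61, SE 0.12, adjusted p = 0.00157, edgeR). It was the only one of the 19 called in that comparison, where 11.2% of all tested genes were called lower. Nfkb1 was lower in PND 16 large (13.3 ± 2.58 CPM) than at PND 13 (21.3 ± 2.80 CPM, adjusted p = 0.0236) and higher again at PND 40 (29.8 ± 2.53 CPM, adjusted p = 0.0046 vs. PND 16 large). The median log2 change of the 19 genes was -0.07 in competent vs. non-competent pools.

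Relatives with the TRIM fold or its parts but another name numbered 11, of which 9 were tested. Mid1, a microtubule-bound ligase of the class that holds Trim36, fell at PND 40. It was at 59.5 ± 2.94 CPM there, against 107 ± 0.264 CPM at PND 13, 129 ± 26.9 CPM in PND 16 small and 102 ± 10.6 CPM in PND 16 large (adjusted p = 0.00029, 7.86e-05 and 0.00369, edgeR). Pml, which builds nuclear bodies, was lower in PND 16 large (9.18 ± 1.45 CPM) than at PND 13 (14.8 ± 2.56 CPM, adjusted p = 0.0109) and at PND 40 (16.4 ± 1.29 CPM, adjusted p = 0.0128). Cmya5, Fsd2 and Rnf135 were higher at PND 40 than in PND 16 small, at 98.9 ± 4.49 vs. 56.2 ± 16.2 CPM for Cmya5. In that comparison 3 of the 9 were called higher and 1 lower, against 6.89% and 10.3% of all tested genes. Between competent and non-competent pools none of the 9 was called, against 3.78% higher and 11.2% lower among all tested genes.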

How the data were processed

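RNA was measured in 12 oocyte pools of 4 cohorts. The authors deposited raw counts of reads per gene, not normalized, and log2 values, which are the log2 of scaled counts plus 1 as tested on the values. The submitters' processing notes name STAR, HTSeq, DESeq2 and the mm10 build, with no versions, and the strand setting of the counting is not given in the sources used here. The study used directional libraries after depletion of ribosomal RNA. Reads carried no molecular identifiers.

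Counts were filtered with filterByExpr (minimum count 10), scaled by TMM and tested by edgeR's robust quasi-likelihood test in 1 model of 4 cohorts, or of 2 competence groups, with Benjamini-Hochberg adjustment over 13943 genes. All p-values printed come from this fit unless another tool is named, and each SE is the size of the log2 change over the root of F. Nothing says whether pools came from separate litters, so p-values measure the spread between pools. Genes were placed, and lengths taken, from GENCODE M21 on GRCm38, and 52 of 68 members matched a RefSeq start-site window.

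Members, lists, tests and alternatives were chosen with earlier results of these data known. Named were all members called, the 5 with the highest CPM, and 11 picked for a role in oocyte, embryo or Trim-Away. Alternatives were other scalings and filters, DESeq2, limma on the deposited log2 values, only the pools compared, no fold criterion, the replicate number as a block, and leaving out each pool. Leaving out the 3 pools highest in granulosa markers was chosen after seeing the data, and the 1 remaining PND 13 pool was then assumed to vary like the other groups. The test was tried on simulated data. Tools were R 4.3.3, edgeR 4.0.16, limma 3.58.1, DESeq2 1.42.0, Python 3.11.15 and matplotlib 3.10.9.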

Additional observations from a re-analysis of the deposited data

Results flagged for a closer look

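In 46 groups of 6 pools, for 23 named members, the highest or lowest pool was compared with the gap expected by Dixon's criterion, and 2 stood out, where chance gives about 1 in 20. Trim12c was at 1.41 CPM in PND 40 replicate 1, and the other 5 competent pools were at 3.26 to 4.92 CPM. Trim43c was at 0 in PND 16 small replicate 3, and the other 5 non-competent pools were at 0.332 to 0.777 CPM.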

How the results depend on the processing

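None of the 36 called changes of TRIM genes reversed. Of them, 22 were called in every fit without 1 pool, 20 under every other alternative that tested the gene and 17 in both. These counts skip alternatives where the gene was filtered out or had no adjusted p. Trim5 in PND 16 large vs. PND 16 small and Trim72 at PND 40 vs. PND 16 small were read in only 7 of 9 alternatives. The shares of all genes called in the alternative fits are not given here. The counts of TRIM genes in this section thus do not show a change particular to the family. Counts of called TRIM genes that moved by more than 1.5 times were as follows. With no fold criterion they were 12 in PND 16 large vs. PND 13, 16 at PND 40 vs. PND 13, 7 in PND 16 large vs. PND 16 small, 5 at PND 40 vs. PND 16 large and 12 in competent vs. non-competent pools. DESeq2 called 1 in PND 16 small vs. PND 13 and 6 at PND 40 vs. PND 16 large, a filter of mean 1 CPM left 2 in PND 16 large vs. PND 16 small, and only the pools compared gave 8 at PND 40 vs. PND 16 large. Leaving out the 3 pools highest in granulosa markers kept the counts within 1.5 times but lost 4 of 6 calls in PND 16 large vs. PND 13 (Trim12c, Trim25, Trim35, Trim5), 4 of 8 at PND 40 vs. PND 13 (Trim11, Trim12c, Trim6, Trim62), 3 of 4 in competent vs. non-competent pools (Trim12c, Trim25, Trim72), Trim72 in PND 16 large vs. PND 16 small and Trim66 at PND 40 vs. PND 16 small.

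Without 1 pool the count ranged from 0 to 4 in PND 16 small vs. PND 13 (4 without PND 16 small replicate 1), 3 to 8 in PND 16 large vs. PND 13 (3 without PND 13 replicate 3), 7 to 9 at PND 40 vs. PND 13 and 1 to 4 in PND 16 large vs. PND 16 small (1 without PND 16 small replicate 1 or PND 16 large replicate 1 or 2, and 2 without replicate 3 of either cohort). It ranged from 8 to 13 at PND 40 vs. PND 16 small, 1 to 5 at PND 40 vs. PND 16 large (5 without PND 40 replicate 3, 1 without any other) and 3 to 5 in competent vs. non-competent pools. The cause was not tested. Total-count scaling shifted the median of all genes to -0.124 (small) and -0.131 (large) in the comparisons of PND 16 cohorts with PND 13.

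With the replicate number as a block, the counts were 0, 6, 7, 4, 10, 3 and 3 in the order of comparisons just given. Same-numbered pools did not deviate together (correlations of -0.442 to 0.0753 in 18 pairs, 0 of them over 0.1). These correlations carry every difference between pools, so they cannot tell whether same-numbered pools shared a litter or a day of preparation. Low counts limit members under about 1 CPM, where a few reads decide a call.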
